A study of Mus musculus with 110 samples.

Results

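The cytochrome P450 (Cyp) genes of families 1 to 4 were examined in mouse liver. Members were the genes whose symbol is Cyp, a family number from 1 to 4, a subfamily letter and a number, and whose level averaged 1 CPM or more (CPM being the count scaled by library size) over the 28 liver libraries. Of 75 genes with such a symbol, 46 passed that level, among 56884 genes in the liver table. They fell into 16 subfamilies, with 13 members in Cyp2c, 5 each in Cyp2d and Cyp4f, 4 each in Cyp3a and Cyp4a, and 3 in Cyp2j. Just above the level stood Cyp1a1 at 1.13 CPM and Cyp2c55 at 1.18 CPM, and just below it Cyp2a4 at 0.94 CPM, Cyp4f18 at 0.69 CPM and Cyp1b1 at 0.65 CPM. The other 29 genes included 6 without a count, and Cyp2b10, the classical phenobarbital-induced gene of the mouse, had 32 counts over all 28 libraries. All 46 members passed the filter on low counts used for testing. Of these, 3 members, Cyp1a1, Cyp2b9 and Cyp2c39, were under 1 CPM on average in the untreated group and so reached the level through the treated groups.

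Cytochromes P450 are heme enzymes of the endoplasmic reticulum that insert an oxygen atom into a substrate, with electrons passed to them by the reductase Por. Families 1 to 3 are known mainly for the clearance of drugs, toxins and steroids, and many Cyp2c and Cyp2j enzymes also make epoxides from arachidonic acid. Family 4 enzymes hydroxylate fatty acids at the end of the chain. Their genes are known targets of nuclear receptors and the aryl hydrocarbon receptor (Ahr), and several differ between male and female mouse liver under the control of growth hormone.

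The samples were livers of male C57BL/6N mice, 16 weeks of age and housed singly, 7 in each of 4 groups. All diets lacked cysteine. By the labels, the control diet (Ctrl) held 0.86% methionine and the methionine-restricted diet (MetR) 0.12%, and feeding lasted 7 days at 22 °C, which is the room-temperature (RT) condition. The cold-exposed (CE) mice then spent 24 h more at 4 °C, so they were also on the diet for longer than the RT groups. The untreated group is Ctrl_RT, and the others are Ctrl_CE, MetR_RT and MetR_CE. Each library was made from the poly(A) RNA of the liver of 1 mouse, and in such bulk samples fewer cells of a type and less RNA per cell cannot be told apart.

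Libraries held 6987895 to 33444374 counts, and the 46 members together took 1.29% to 2.27% of them. The 5 hepatocyte markers, such as Alb and Apoa1, summed to at least 47810 CPM in every group, against at most 1.91 CPM for the 3 adipocyte markers. Apoa1 itself fell by 1.37 ± 0.12 on the log2 scale under CE and by 1.27 ± 0.12 under both stimuli. Of the 5 endothelial markers, 5 were higher in Ctrl_CE and in MetR_CE than in Ctrl_RT. Ctrl_RT libraries held a sum of 105 to 163 CPM, Ctrl_CE 175 to 293, MetR_RT 145 to 197 and MetR_CE 239 to 276.5. For the Kupffer cell markers the sum was 201 to 285.4 CPM in Ctrl_RT and 179 to 811 in Ctrl_CE, against 93.8 to 182 in MetR_RT and 162 to 194 in MetR_CE. The 4 stellate cell markers summed to 78.7 to 198.5 CPM in Ctrl_RT, 187 to 287.8 in Ctrl_CE, 130.4 to 204 in MetR_RT and 156 to 238 in MetR_CE. For the 5 cholangiocyte markers the sum was 45.8 to 319 CPM in Ctrl_RT and 28.6 to 36.6 in Ctrl_CE. It was 27.5 to 34.5 in MetR_RT and 21.8 to 25.98 in MetR_CE, with no overlap between Ctrl_RT and the other groups. Most of it came from Spp1, at 31.8 to 308 CPM in Ctrl_RT, and Sox9, and these 2 were lower in all 3 comparisons. Krt7, Krt19 and Epcam stayed at or below 1.94 CPM in every library and passed the thresholds used below in none of them. The list's median log2 fold change was -0.48, 0.00040 and -0.71 under CE, MetR and both. The part of these cell types in the results was not tested.

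One library stood apart. Ctrl_CE replicate 4 had a score of 30.5 on the third principal component of the 500 most variable genes, where the other 27 libraries lay between -17.3 and 8.22. It held the highest or lowest value of its group for 26 of the 46 members, including 1786 CPM of Cyp4a14 and 25.4 CPM of Cyp3a11. Member calls that differ without this library are given both ways, and other values include it unless stated. Without it the CE log2 fold change went from 1.85 to 1.55 for Cyp4a31 and from 2.15 to 1.93 for Cyp2c39, which stayed called. For the uncalled Cyp2c69 the value went from 0.80 to -0.58. Among genes that are not members, this library held the highest Ctrl_CE values of Ahr (88.9 CPM), Por (719 CPM) and Hmox1 (94.5 CPM).

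Many members are near-copies of each other, which limits what short reads can assign. In GENCODE M21 transcripts, a median of 8.88% of the 50-base windows of a member were also found in another gene, 18 members shared over 20% of their windows and 3 shared over 50% (Cyp2c40 72.1%, Cyp2c69 54.8% and Cyp2c67 52.8%). Cyp2a5 shared 40.8% of its windows with other genes, mostly with Cyp2a4, and the coding sequences of this pair differ at 23 of 1485 bases. The genes of 3 pairs that the results turn on are shown as 60-base stretches of their coding sequence, chosen as stretches rich in differences, with the bases that differ within a pair in capitals. The first pair, Cyp2a5 and Cyp2a4 on chromosome 7, is shown from coding base 596 to 655.
Cyp2a5: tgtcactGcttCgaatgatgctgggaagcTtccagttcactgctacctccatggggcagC
Cyp2a4: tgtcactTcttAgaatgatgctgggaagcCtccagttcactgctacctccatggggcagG
The second pair, Cyp4a10 and Cyp4a31 on chromosome 4, differs at 52 of 1530 coding bases and is shown from base 106 to 165.
Cyp4a10: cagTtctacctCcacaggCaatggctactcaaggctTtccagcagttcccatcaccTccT
Cyp4a31: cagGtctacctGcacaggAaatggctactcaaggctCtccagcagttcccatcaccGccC
The third pair, Cyp2c50 and Cyp2c54 on chromosome 19, differs at 70 of 1473 coding bases and is shown from base 791 to 850.
Cyp2c50: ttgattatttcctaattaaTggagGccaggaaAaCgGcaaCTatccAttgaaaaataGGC
Cyp2c54: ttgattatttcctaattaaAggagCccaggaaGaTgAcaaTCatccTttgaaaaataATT
These stretches hold 4, 6 and 11 differences, and a read that covers a differing base can separate the pair. The pairs shown are not always the closest copies. In coding sequence Cyp4a10 was closest to Cyp4a32 (97.2% identical) and Cyp2c50 to Cyp2c37 (96.1%). Cyp4a32 shared 46.8% of its windows with other genes, most often with Cyp4a10. Reads from identical windows cannot be separated, and values of members with high shared percentages carry that uncertainty.

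Per length of transcript, Cyp2e1 was the most abundant member in all 4 groups. It encodes the enzyme that oxidises ethanol and acetaminophen. In Ctrl_RT it stood at 2514 ± 389 CPM per kb (mean ± SD, n = 7) and it took a median of 28.7% of the summed CPM of all members. Cyp2f2, an enzyme known for oxidising naphthalene and enriched in periportal hepatocytes, followed at 793 ± 124 CPM per kb, and Cyp2d9, a male-biased steroid hydroxylase gene, at 757 ± 122. These neighbours in the order were within 1 SD of each other. Cyp2a5 stood 19th in Ctrl_RT at 87.2 CPM per kb, 9th in Ctrl_CE, and on the MetR diet 4th in MetR_RT and 3rd in MetR_CE at 600 CPM per kb. Cyp4a14 moved from 28th in Ctrl_RT to 8th in MetR_CE, and Cyp2c70 from 7th to 15th.

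**Figure D1:**
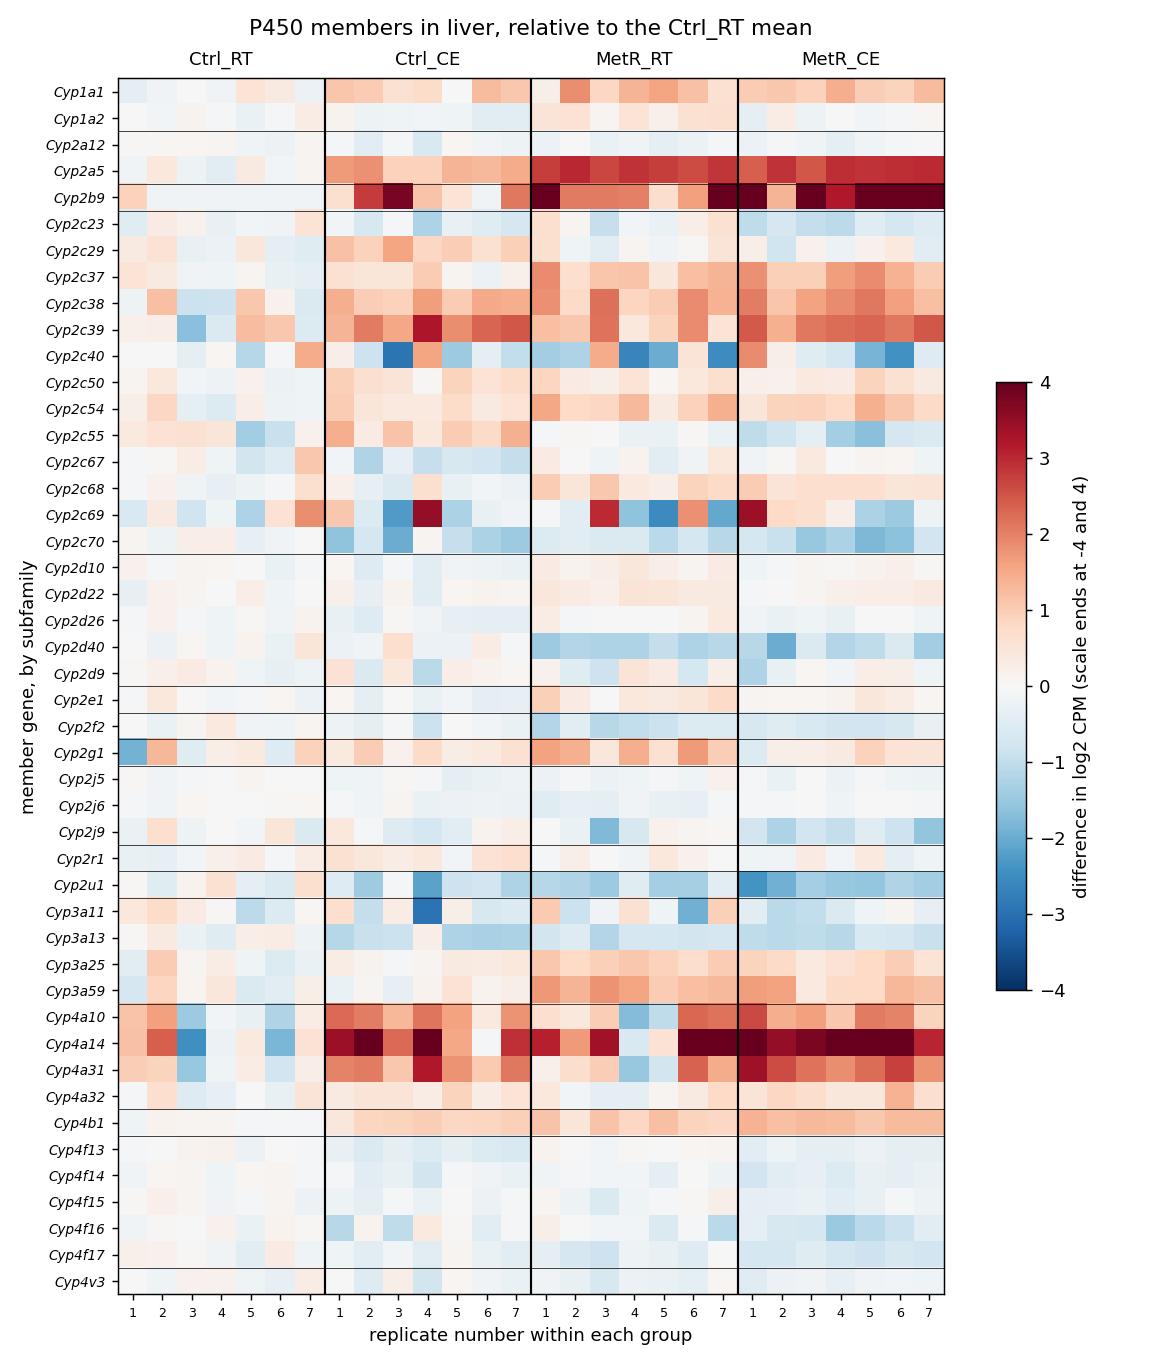
Colour gives the log2 CPM (with a prior count of 2) of each of 46 members (rows, by subfamily) in each of 28 liver libraries (columns, by group) minus the gene's Ctrl_RT mean, and the colour scale ends at -4 and 4. Cyp2a5 is above Ctrl_RT in every library of the other 3 groups, Cyp4a14 varies widely within groups, and most Cyp2d, Cyp2j and Cyp4f members are pale.

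Ctrl_RT had a summed CPM over all members of 15389 ± 1271 (SD, n = 7), beside 14999 ± 1463 for Ctrl_CE, 18491 ± 2688 for MetR_RT and 16968 ± 1513 for MetR_CE, and the libraries of each treated group overlapped those of Ctrl_RT. The subfamilies moved differently below this total. The Cyp2a sum was 874 ± 66.6 CPM in Ctrl_RT, 1066 ± 149 in Ctrl_CE, and on the MetR diet 1814 ± 159 in MetR_RT and 1837 ± 218 in MetR_CE, and no library on the MetR diet overlapped one of Ctrl_RT. The Cyp4a sum was 266.1 ± 209 CPM in Ctrl_RT, 1027 ± 735 in Ctrl_CE, and on the MetR diet 751 ± 676 in MetR_RT and 1450 ± 678 in MetR_CE, with overlap between every treated group and Ctrl_RT. This sum leaves out Cyp4a12a and Cyp4a12b, whose symbols end in a letter and which averaged 72.5 and 30.4 CPM over the 28 libraries. The Cyp2c sum stayed between 1788 ± 168 CPM (MetR_CE) and 2047 ± 198 CPM (Ctrl_CE), although 11 of its 13 members were called in at least 1 comparison with Ctrl_RT. The Cyp4f sum was lowest in MetR_CE, at 446 ± 33.4 CPM against 581 ± 38.6 in Ctrl_RT, with no overlap. No test was run on these sums.

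**Figure D2:**
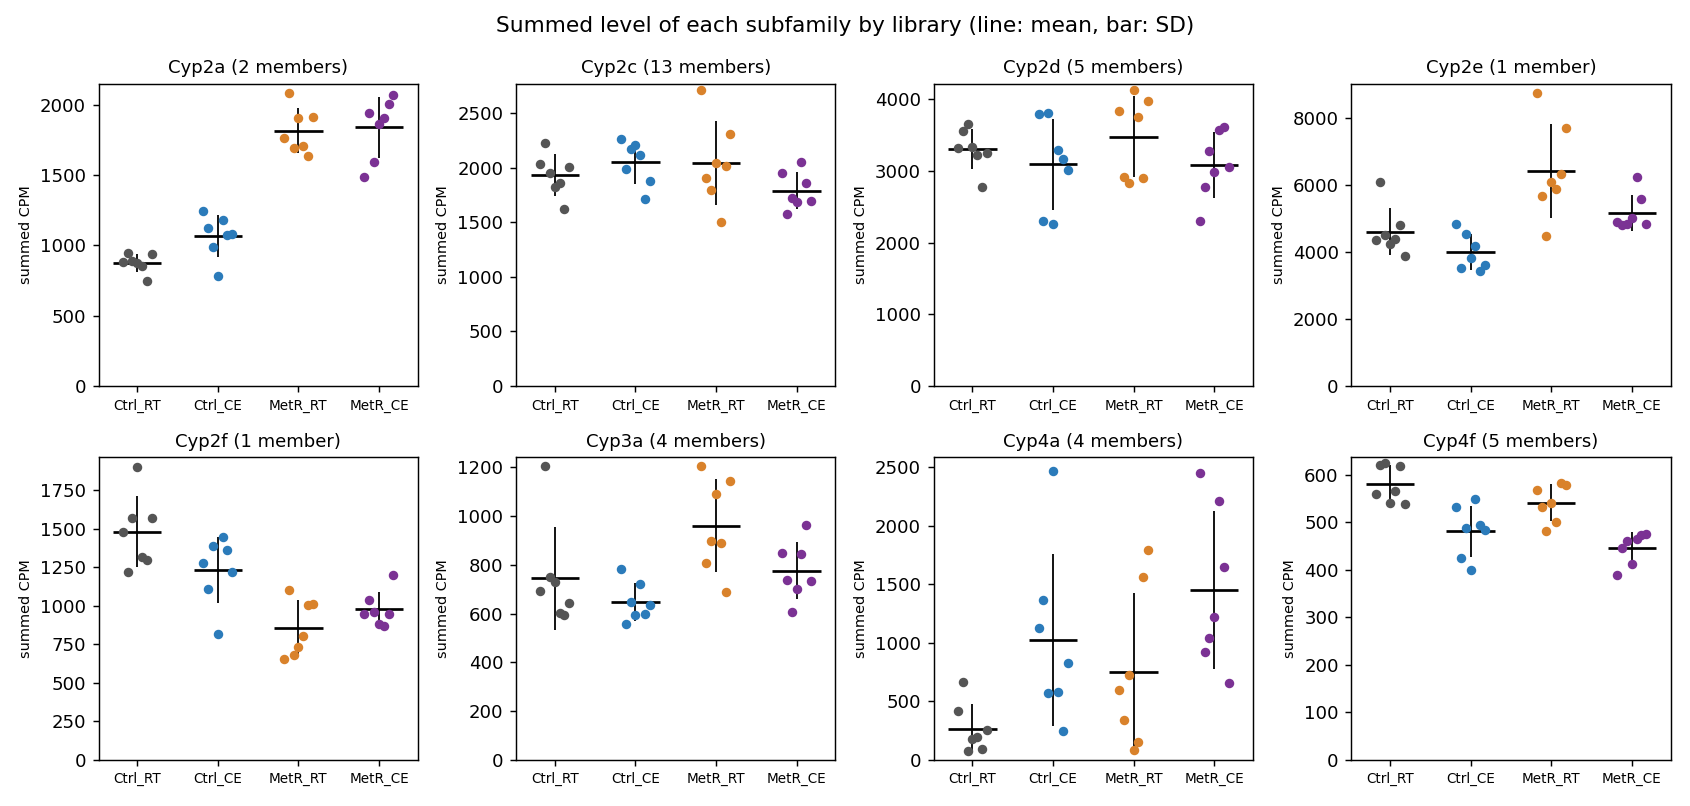
Each point is the summed CPM of a subfamily in 1 liver library, by group, with the mean as a line and the SD as a bar, on axes that start at 0. The Cyp2a sums of both MetR groups lie above those of Ctrl_RT, while the Cyp4a sums spread over a wide range in every treated group.

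Each treated group was then compared with Ctrl_RT by the edgeR quasi-likelihood test over 22143 genes. A gene was called when its Benjamini-Hochberg adjusted p was under 0.05 and its fold change at least 1.5. CE on the control diet called 15 of 46 members, 11 higher and 4 lower, against 11.9% of all genes tested and 14.8% of the genes with at least 1 CPM. MetR at room temperature called 18 members, 13 higher and 5 lower, against 6.91% of all genes and 8.79% of those with at least 1 CPM. Both stimuli together called 25 members, 15 higher and 10 lower, against 13.5% of all genes and 16.5% of those with at least 1 CPM. The higher calls include members that reached the level of 1 CPM through the treated groups. These are Cyp1a1 and Cyp2c39 in all 3 comparisons, and Cyp2b9 under MetR and both. By direction, 7.28%, 2.88% and 6.25% of all genes were called higher in the 3 comparisons, and 4.64%, 4.02% and 7.22% lower. Among genes with at least 1 CPM these shares were 10.1%, 3.92% and 8.77% higher, and 4.71%, 4.87% and 7.74% lower. The median log2 fold change of the members was -0.043, 0.11 and -0.047, beside -0.011, 0.0045 and -0.044 for all genes, so the members moved in both directions around the middle of all genes.

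The members moved together only in part: 6 were called higher in all 3 comparisons (Cyp1a1, Cyp2a5, Cyp2c38, Cyp2c39, Cyp4a14 and Cyp4b1) and 3 lower in all 3 (Cyp2c70, Cyp2u1 and Cyp3a13). Of the 6, Cyp1a1 and Cyp2c39 had passed the level for members through the treated groups. With DESeq2 and apeglm, which shrinks fold changes, 5 calls against Ctrl_RT fell below the fold limit: Cyp2c70 in MetR_RT at -0.54, Cyp2c50 in Ctrl_CE at 0.57, and in MetR_CE Cyp2c68 at 0.56, Cyp2f2 at -0.57 and Cyp3a25 at 0.57. The 3 comparisons share the Ctrl_RT libraries. A further 6 were called higher in MetR_RT and MetR_CE and not in Ctrl_CE (Cyp2b9, Cyp2c37, Cyp2c54, Cyp2c68, Cyp3a25 and Cyp3a59), and 2 lower (Cyp2d40 and Cyp2f2), and differences between comparisons were tested only where a fit of that difference is given below. Cyp2c55 was the 1 member called in opposite directions. The 17 members called in none of the 3 included Cyp2e1, Cyp1a2, Cyp3a11, Cyp2r1, Cyp4v3, Cyp2a12, 4 of the 5 Cyp2d members and 3 of the 5 Cyp4f members. None of these 17 was called in the other 3 comparisons either.

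**Figure D3:**
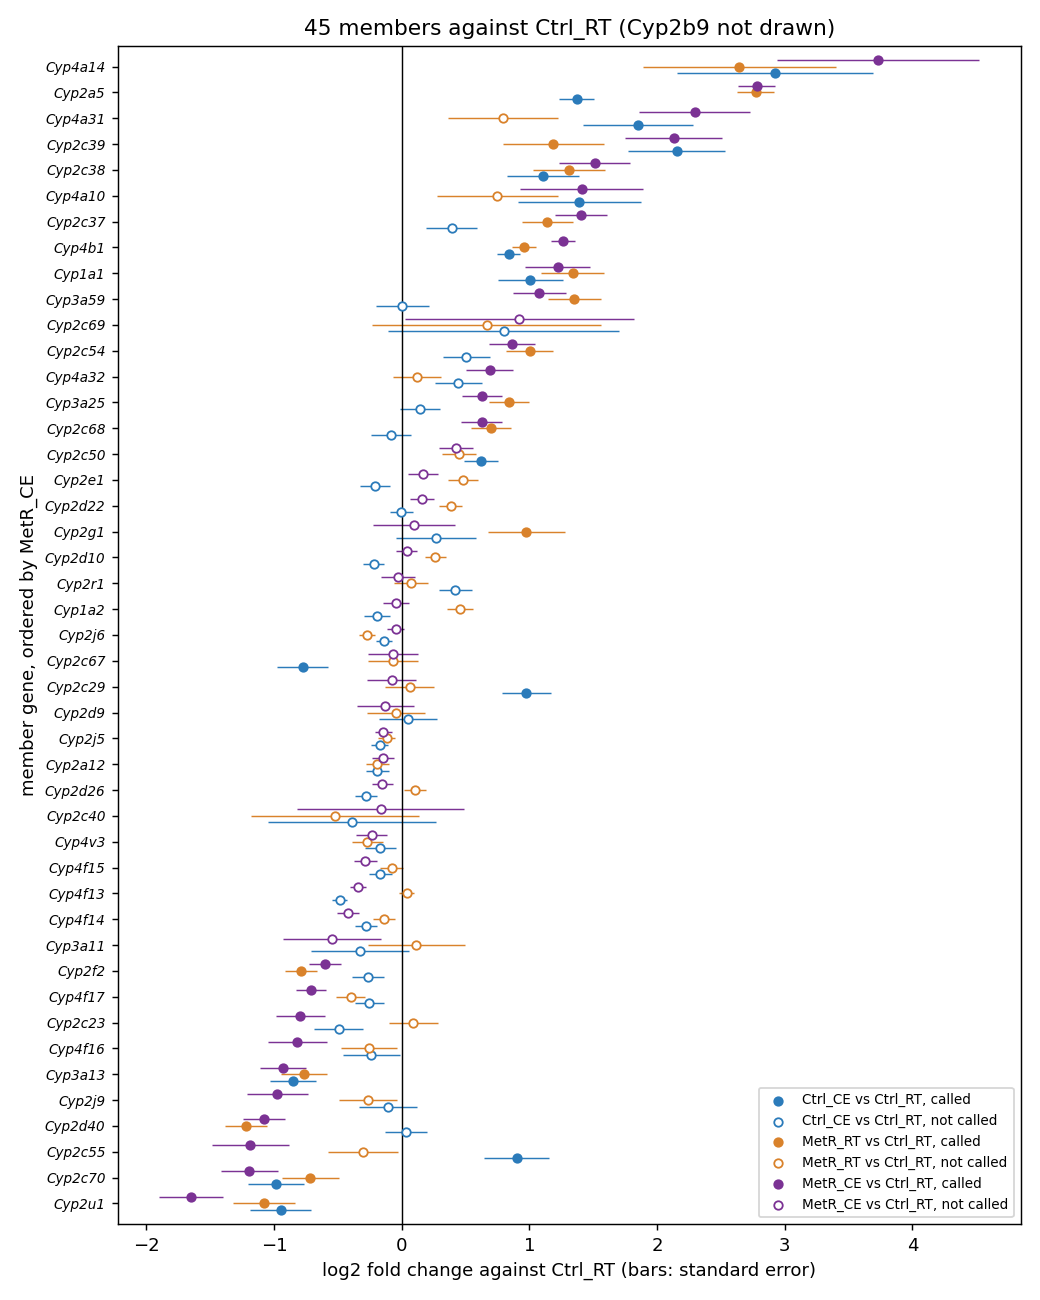
Log2 fold change against Ctrl_RT with its standard error for 45 members in the 3 comparisons, ordered by MetR_CE, with filled points for called members and open points for the rest. Cyp4a14 and Cyp2a5 are at the top, Cyp2u1 and Cyp2c70 at the bottom, and Cyp2c29 and Cyp2c55 show the blue Ctrl_CE point far to the right of the purple MetR_CE point. Cyp2b9 is left out because it had almost no counts in Ctrl_RT.

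Cyp2a5 encodes coumarin 7-hydroxylase, which also oxidises nicotine and bilirubin. Its lowest, median and highest values were 128, 159 and 230 CPM in Ctrl_RT, 325, 442 and 609 in Ctrl_CE, and on the MetR diet 1044, 1176 and 1400 in MetR_RT and 894, 1282 and 1369 in MetR_CE. No library of a treated group overlapped Ctrl_RT, and none on the MetR diet overlapped Ctrl_CE. The log2 fold change was 1.37 ± 0.14 (SE) under CE with an adjusted p of 2.0e-08, 2.77 ± 0.14 under MetR with 4.6e-14 and 2.78 ± 0.15 under both with 4.3e-14. Between the MetR groups it was 0.0071 ± 0.14 with an adjusted p of 0.98. The other Cyp2a member, Cyp2a12, which is known for steroid and bile acid hydroxylation, had log2 fold changes of -0.19, -0.19 and -0.15 and was not called. Cyp2a4, the testosterone 15-alpha-hydroxylase that is the close copy of Cyp2a5 and lies below the level for members, had 8 counts in Ctrl_RT, 47 in Ctrl_CE, and on the MetR diet 140 in MetR_RT and 199 in MetR_CE, over 7 libraries each. It took 0.048% to 0.163% of the counts of the pair in each group, and whether some of these counts are reads of Cyp2a5 was not tested.

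Cyp2b9 had almost no counts in Ctrl_RT. It encodes a steroid hydroxylase that is female-biased in mouse liver. It had 2 counts in Ctrl_RT, both in replicate 1, 62 in Ctrl_CE, and on the MetR diet 367 in MetR_RT and 687 in MetR_CE. Scaled to the total counts of each group, this was 26.2 times Ctrl_RT in Ctrl_CE (95% exact counting interval 6.96 to 221), 147 times in MetR_RT (40.3 to 1220) and 363 times in MetR_CE (100 to 3010). These ratios pool the counts of the libraries of a group, and the intervals cover counting error only, not the spread between mice. In MetR_RT the pooled value rests mainly on replicate 7, at 8.64 CPM and the deepest library with 33444374 counts. Replicate 1 stood at 6.05 CPM, and the other MetR_RT libraries at 0.10 to 0.46 CPM. Its lowest, median and highest values were 0, 0.186 and 1.83 CPM in Ctrl_CE, and on the MetR diet 0.104, 0.460 and 8.64 in MetR_RT and 0.231, 3.73 and 13.5 in MetR_CE. All 7 MetR_CE libraries were above Ctrl_RT, but they spread over a wide range among themselves. The test called it in MetR_RT (adjusted p = 0.0034) and MetR_CE (4.4e-05) but not in Ctrl_CE (0.12), where DESeq2 gave 0.0033. Between the MetR groups the edgeR log2 fold change was 1.51 with an adjusted p of 0.14. Without MetR_RT replicate 7 it was called there, at 2.83 with 0.0090.

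In Cyp2c, 5 of 13 members were called higher in each comparison with Ctrl_RT, and 2, 1 and 3 were lower under CE, MetR and both. The whole subfamily lies on chromosome 19. Most of the higher calls were epoxygenases, enzymes that make epoxyeicosatrienoic acids from arachidonic acid. Of 9 tested genes in a list of epoxygenases, 4 were higher in each comparison, and 1, Cyp2j9, was lower in MetR_CE. The list's median log2 fold change was 0.51, 0.45 and 0.42.

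Cyp2c29 was higher under CE alone. Its lowest, median and highest values were 242.1, 289.9 and 504 CPM in Ctrl_RT, 516, 652 and 1006 in Ctrl_CE, and on the MetR diet 250.4, 349.9 and 521 in MetR_RT and 194, 377 and 441 in MetR_CE. Every Ctrl_CE library lay above every library of Ctrl_RT and of MetR_CE. The log2 fold change was 0.98 ± 0.19 under CE (adjusted p = 2.5e-04), 0.064 ± 0.19 under MetR (0.87) and -0.079 ± 0.19 under both (0.81). Cyp2c50 was also called under CE alone, with 0.62 ± 0.13 (adjusted p = 6.2e-04), and it dropped below the 1.5-fold limit without Ctrl_CE replicate 1, at 0.57, or without Ctrl_CE replicate 5, at 0.58. Under MetR and under both it was at 0.45 and 0.42 with adjusted p of 0.016 and 0.014.

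Cyp2c37, Cyp2c54 and Cyp2c68 were higher on the MetR diet. Cyp2c37 went from 51.1, 60.8 and 99.1 CPM (lowest, median and highest) in Ctrl_RT to 92.2, 148 and 252.1 in MetR_RT and 132, 177 and 250.7 in MetR_CE, where no library overlapped Ctrl_RT. Its log2 fold changes were 1.14 ± 0.20 (adjusted p = 1.3e-04) and 1.40 ± 0.20 (2.9e-06), and under CE 0.39 ± 0.20 (0.15). Cyp2c54 was at 1.002 ± 0.18 and 0.86 ± 0.18 in the same 2 comparisons. Under CE it stood at 0.51 with an adjusted p of 0.035, below the fold limit, and was called there without Ctrl_RT replicate 2, at 0.69. Cyp2c68 was at 0.70 ± 0.16 and 0.63 ± 0.16, the second of which fell below the fold limit without Ctrl_RT replicate 4 or MetR_CE replicate 1, at 0.55 to 0.58.

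Cyp2c38 and Cyp2c39 were higher in all 3 comparisons. Cyp2c38 had medians of 7.72, 24.5, 23.5 and 28.3 CPM in Ctrl_RT, Ctrl_CE, MetR_RT and MetR_CE, and its log2 fold changes were 1.11 ± 0.28, 1.31 ± 0.28 and 1.51 ± 0.28. The Ctrl_RT library at 20.6 CPM overlapped all 3 treated groups. Cyp2c39 was rarer, with a median of 0.62 CPM in Ctrl_RT, 2.63 in Ctrl_CE, and on the MetR diet 1.25 in MetR_RT and 2.96 in MetR_CE. Its log2 fold changes were 2.15 ± 0.38, 1.19 ± 0.40 and 2.13 ± 0.38. The call under MetR alone (adjusted p = 0.033) was lost in 6 of 28 fits that each left out 1 library (Ctrl_RT replicates 1, 3, 4 and 7, and MetR_RT replicates 3 and 6), with log2 fold changes of 0.95 to 1.18 and adjusted p of 0.054 to 0.10, and with the replicate number as a block, at 1.18 with 0.056. A fit of the compared groups only gave 1.19 with 0.060.

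Cyp2c70 encodes the enzyme that makes muricholic acids, the bile acids typical of mice. Its lowest, median and highest values were 530.3, 660.1 and 804 CPM in Ctrl_RT, 169, 273.5 and 718 in Ctrl_CE, and on the MetR diet 307, 441 and 494 in MetR_RT and 189.6, 273.7 and 405 in MetR_CE. No library on the MetR diet overlapped Ctrl_RT, and in Ctrl_CE only replicate 4, at 718 CPM, did. Cyp2c70 fell by 0.98 ± 0.22 on the log2 scale under CE, by 0.71 ± 0.22 under MetR and by 1.19 ± 0.22 under both, with adjusted p of 0.0010, 0.021 and 9.8e-05. Without Ctrl_CE replicate 4 the CE value was -1.27 with an adjusted p of 4.7e-06, and with DESeq2 and apeglm the MetR value was -0.54, below the fold limit. Cyp2c67 fell by 0.78 ± 0.20 under CE only (adjusted p = 0.0031), and without Ctrl_RT replicate 7, its highest library at 270.9 CPM, it was at -0.52, below the fold limit. Cyp2c23, also known as an epoxygenase gene but not on that list, fell by 0.79 ± 0.19 in MetR_CE (adjusted p = 0.0019).

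Cyp2c55 was the member called in opposite directions. It encodes an enzyme known for hydroxyeicosatetraenoic acids, and it was rare throughout, with lowest, median and highest values of 0.31, 1.38 and 1.64 CPM in Ctrl_RT, 1.31, 2.18 and 3.02 in Ctrl_CE, and on the MetR diet 0.82, 0.96 and 1.06 in MetR_RT and 0.23, 0.54 and 0.76 in MetR_CE. MetR_CE lay below Ctrl_CE and below MetR_RT with no overlap. The log2 fold change was 0.90 ± 0.25 under CE (adjusted p = 0.0072), -0.30 ± 0.27 under MetR (0.51) and -1.18 ± 0.30 under both (0.0030).

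Cyp2c40 and Cyp2c69, which share most of their windows with each other and with Cyp2c67 and Cyp2c68, varied more between libraries of 1 group than between groups. Cyp2c69 had the largest spread of all members, with a mean within-group SD of 1.64 on the log2 CPM scale. Its range was 0.71 to 7.04 CPM in Ctrl_RT, 0.29 to 22.4 in Ctrl_CE, and on the MetR diet 0.21 to 15.5 in MetR_RT and 0.60 to 21.1 in MetR_CE. The highest library of each group was Ctrl_RT replicate 7, Ctrl_CE replicate 4, MetR_RT replicate 3 and MetR_CE replicate 1, and the same libraries held the highest Cyp2c40 and Cyp2c68. In the last 3 of these the male-biased Cyp2d9 was the lowest of its group, at 612, 717 and 542 CPM against group medians of 1413, 1440 and 1178. In Ctrl_RT the lowest Cyp2d9 was in replicate 6. This set of genes was picked after its values were seen, and neither gene was called in any comparison.

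**Figure D4:**
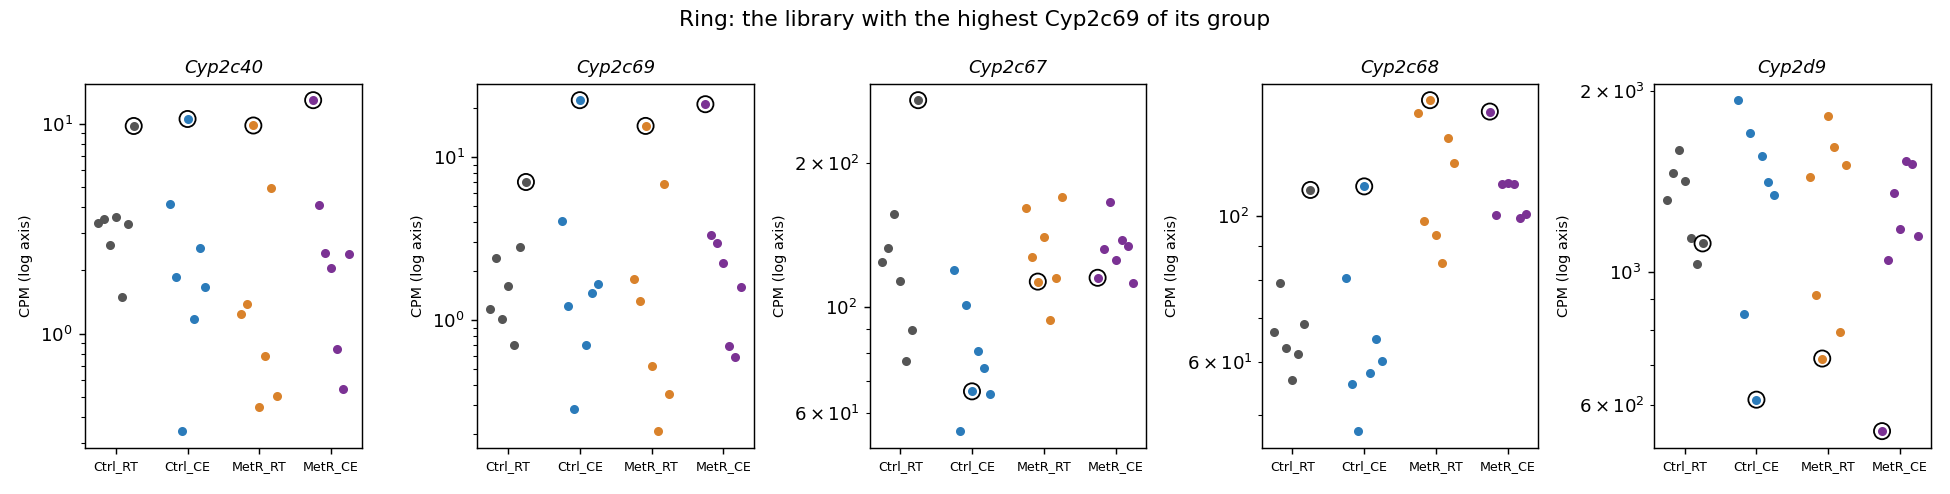
CPM of Cyp2c40, Cyp2c69, Cyp2c67, Cyp2c68 and Cyp2d9 in each liver library on log axes, with a ring around the library that has the highest Cyp2c69 of its group. The ringed libraries are also the highest for Cyp2c40 and Cyp2c68 and, in the 3 treated groups, the lowest for Cyp2d9.

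In Cyp2d, 4 of 5 members kept within 1.5-fold of Ctrl_RT in all comparisons, and Cyp2d40 was the exception. It had 103, 123 and 174 CPM (lowest, median and highest) in Ctrl_RT, 106, 113 and 199 in Ctrl_CE, and on the MetR diet 45.5, 52.6 and 63.9 in MetR_RT and 31.04, 58.1 and 82.9 in MetR_CE. Neither MetR group overlapped a group on the control diet at the same temperature. Cyp2d40 fell by 1.22 ± 0.17 on the log2 scale under MetR (adjusted p = 3.3e-06) and by 1.08 ± 0.17 under both (6.4e-06), and was at 0.035 ± 0.16 under CE (0.91). Cyp2d22 was at 0.38 under MetR with an adjusted p of 0.0035, below the fold limit, and no Cyp2d member was called under CE.

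Cyp2f2 also fell on the MetR diet. It had 1221, 1480 and 1901 CPM in Ctrl_RT, 657, 806 and 1099 in MetR_RT and 871, 946 and 1199 in MetR_CE, with no overlap. It fell by 0.79 ± 0.12 (adjusted p = 2.8e-05) and 0.60 ± 0.12 (3.4e-04) on the log2 scale. The second value is close to the fold limit and dropped below it without Ctrl_RT replicate 3, 4 or 7 or MetR_CE replicate 4 or 5, at -0.58 to -0.53. Cyp2e1 had medians of 4387 CPM in Ctrl_RT, 3826 in Ctrl_CE, and on the MetR diet 6079 in MetR_RT and 4890 in MetR_CE. It was at 0.48 ± 0.12 under MetR with an adjusted p of 0.0037, which is below 1.5-fold.

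Cyp2u1, which hydroxylates long-chain fatty acids, fell in all 3 comparisons. It had 39.2, 60.2 and 92.1 CPM in Ctrl_RT, 13.2, 33.3 and 55.4 in Ctrl_CE, and on the MetR diet 21.2, 25.6 and 43.6 in MetR_RT and 11.1, 20.5 and 25.6 in MetR_CE. Only MetR_CE was clear of Ctrl_RT. The falls on the log2 scale were 0.95 ± 0.24, 1.08 ± 0.24 and 1.65 ± 0.25, with adjusted p of 0.0032, 0.0017 and 5.2e-06. Cyp2g1, a gene best known from olfactory tissue, rose under MetR alone by 0.98 ± 0.30 from a median of 1.68 to 3.88 CPM (adjusted p = 0.022). That call was lost without Ctrl_RT replicate 3 or 6 or MetR_RT replicate 6, at 0.86 to 0.87, and in a fit of the compared groups only, at 0.97 with an adjusted p of 0.063. Of the Cyp2j members, Cyp2j9 fell by 0.97 ± 0.24 in MetR_CE (adjusted p = 0.0021), while the abundant Cyp2j5 stayed between -0.17 and -0.12. Cyp2r1, a vitamin D 25-hydroxylase, was not called, with 0.42 ± 0.13 under CE (adjusted p = 0.014).

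In family 1, Cyp1a1 and Cyp1a2 are the standard targets of Ahr. Cyp1a1 had medians of 0.50 CPM in Ctrl_RT, 1.26 in Ctrl_CE, and on the MetR diet 1.41 in MetR_RT and 1.26 in MetR_CE, with only MetR_CE clear of Ctrl_RT. Its log2 fold changes were 1.01 ± 0.26, 1.34 ± 0.25 and 1.22 ± 0.26, with adjusted p of 0.0031, 2.4e-04 and 3.8e-04. Cyp1a2, which was far more abundant, was not called: its median was 452 CPM in Ctrl_RT and 672 in MetR_RT, a log2 fold change of 0.46 ± 0.10 with an adjusted p of 0.0015. It was lower in MetR_CE than in MetR_RT by less than 1.5-fold, at -0.51 ± 0.10 (adjusted p = 5.6e-04).

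The 4 Cyp3a members, on chromosome 5, took different directions. Cyp3a25 and its near-copy Cyp3a59, 97.5% identical in coding sequence, rose on the MetR diet. Cyp3a59 had 10.6, 18.6 and 31.3 CPM in Ctrl_RT, 34.8, 43.8 and 60.2 in MetR_RT and 22.6, 38.97 and 55.0 in MetR_CE, and only MetR_RT was clear of Ctrl_RT. Its log2 fold changes were 1.35 ± 0.21 (adjusted p = 1.8e-05) and 1.08 ± 0.21 (1.3e-04), and under CE 0.0059 ± 0.21 (0.99). Cyp3a25 was at 0.84 ± 0.16 under MetR (adjusted p = 2.4e-04) and 0.63 ± 0.16 under both (0.0025). The second call was lost without Ctrl_RT replicate 1, 6 or 7 or MetR_CE replicate 6, at 0.55 to 0.58.

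Cyp3a13 fell in all 3 comparisons. It had 139, 201 and 248.8 CPM in Ctrl_RT, 78.7, 87.95 and 233 in Ctrl_CE, and on the MetR diet 86.4, 121 and 136 in MetR_RT and 90.2, 97.5 and 128 in MetR_CE. As for Cyp2c70, Ctrl_CE replicate 4 held the highest Ctrl_CE value. The falls were 0.85 ± 0.18, 0.77 ± 0.18 and 0.93 ± 0.18 on the log2 scale, and without Ctrl_CE replicate 4 the CE value was -1.13. Cyp3a11, the main CYP3A drug-metabolising enzyme of mouse liver and a target of the pregnane X receptor (Nr1i2), ranged from 25.4 to 317 CPM within Ctrl_CE and was not called.

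The Cyp4a members are omega-hydroxylases and the classical targets of the fatty acid receptor Ppara. In MetR_CE 4 of the 4 members were higher than in Ctrl_RT, in Ctrl_CE 3 and in MetR_RT 1. Cyp4a12a and Cyp4a12b, which are not members, were lower in MetR_RT and MetR_CE. Cyp4a14 had 7.49, 55.5 and 219 CPM in Ctrl_RT, 39.4, 319 and 1786 in Ctrl_CE, and on the MetR diet 27.2, 359 and 1154 in MetR_RT and 349, 893 and 1610 in MetR_CE. Only MetR_CE was clear of Ctrl_RT. The log2 fold changes of Cyp4a14 were 2.92 ± 0.77, 2.65 ± 0.76 and 3.73 ± 0.79, with adjusted p of 0.0041, 0.012 and 4.5e-04. Without Ctrl_CE replicate 4 the CE value was 2.20 with an adjusted p of 0.018.

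Cyp4a31 had medians of 11.8 CPM in Ctrl_RT, 39.3 in Ctrl_CE, and on the MetR diet 16.2 in MetR_RT and 46.7 in MetR_CE, and both CE groups were clear of Ctrl_RT. It rose by 1.85 ± 0.43 under CE (adjusted p = 0.0015) and 2.30 ± 0.43 under both (1.2e-04), and was at 0.80 ± 0.43 under MetR (0.22). Cyp4a10 had medians of 118, 436, 201 and 394 CPM in the same order. Its log2 fold changes were 1.39 ± 0.48 (adjusted p = 0.029), 0.75 ± 0.48 (0.31) and 1.41 ± 0.48 (0.025). The CE call of Cyp4a10 was lost without Ctrl_RT replicate 3, 4, 5 or 6 or Ctrl_CE replicate 1, at 1.23 to 1.33, and the call under both without Ctrl_RT replicate 3 or 6 or MetR_CE replicate 1, at 1.21 to 1.27. Cyp4a32 was called in MetR_CE at 0.69 ± 0.18, and fell below the limit without MetR_CE replicate 6, at 0.55.

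Cyp4b1, the fatty acid and xenobiotic hydroxylase that is better known from lung, varied little within groups. It had 8.75, 9.53 and 10.9 CPM in Ctrl_RT, 13.5, 18.2 and 19.6 in Ctrl_CE, and on the MetR diet 13.9, 18.5 and 23.1 in MetR_RT and 21.1, 24.1 and 26.3 in MetR_CE. All treated groups were clear of Ctrl_RT, and MetR_CE was clear of Ctrl_CE. Its log2 fold changes were 0.84 ± 0.09, 0.96 ± 0.09 and 1.27 ± 0.09, with adjusted p of 1.0e-07, 1.1e-08 and 2.0e-11. The Cyp4f members, which hydroxylate leukotriene B4 and fatty acids, had median log2 fold changes of -0.25, -0.14 and -0.42. Cyp4f16 fell by 0.82 ± 0.23 and Cyp4f17 by 0.71 ± 0.12 in MetR_CE. Cyp4f13 had the lowest adjusted p of the uncalled members under CE, 5.9e-07, with a log2 fold change of -0.49 ± 0.06, medians of 82.9 and 57.3 CPM and no overlap. A list of 12 omega-hydroxylase genes of family 4 had 4, 2 and 5 genes higher and 0, 0 and 2 lower, with median log2 fold changes of 0.040, -0.019 and -0.26. That list does not hold Cyp4a12a and Cyp4a12b, which were called lower in MetR_RT and MetR_CE.

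Libraries that did not overlap were counted for all members. Under CE 5 members were higher than Ctrl_RT with no overlap and 1 was lower, where 4.01% and 3.49% of all genes were. Under MetR 3 were higher and 4 lower, against 2.99% and 2.52%, and in MetR_CE 8 were higher and 8 lower, against 6.31% and 5.65%. Cyp2c39 was among the 5 higher under CE, and Cyp1a1, Cyp2b9 and Cyp2c39 were among the 8 higher in MetR_CE. These 3 members reached the level for members through the treated groups. Between the MetR groups CE left 0 higher and 2 lower with no overlap, against 3.64% and 3.69%, and under CE the MetR diet left 2 higher and 4 lower, against 2.04% and 1.59%.

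**Figure D5:**
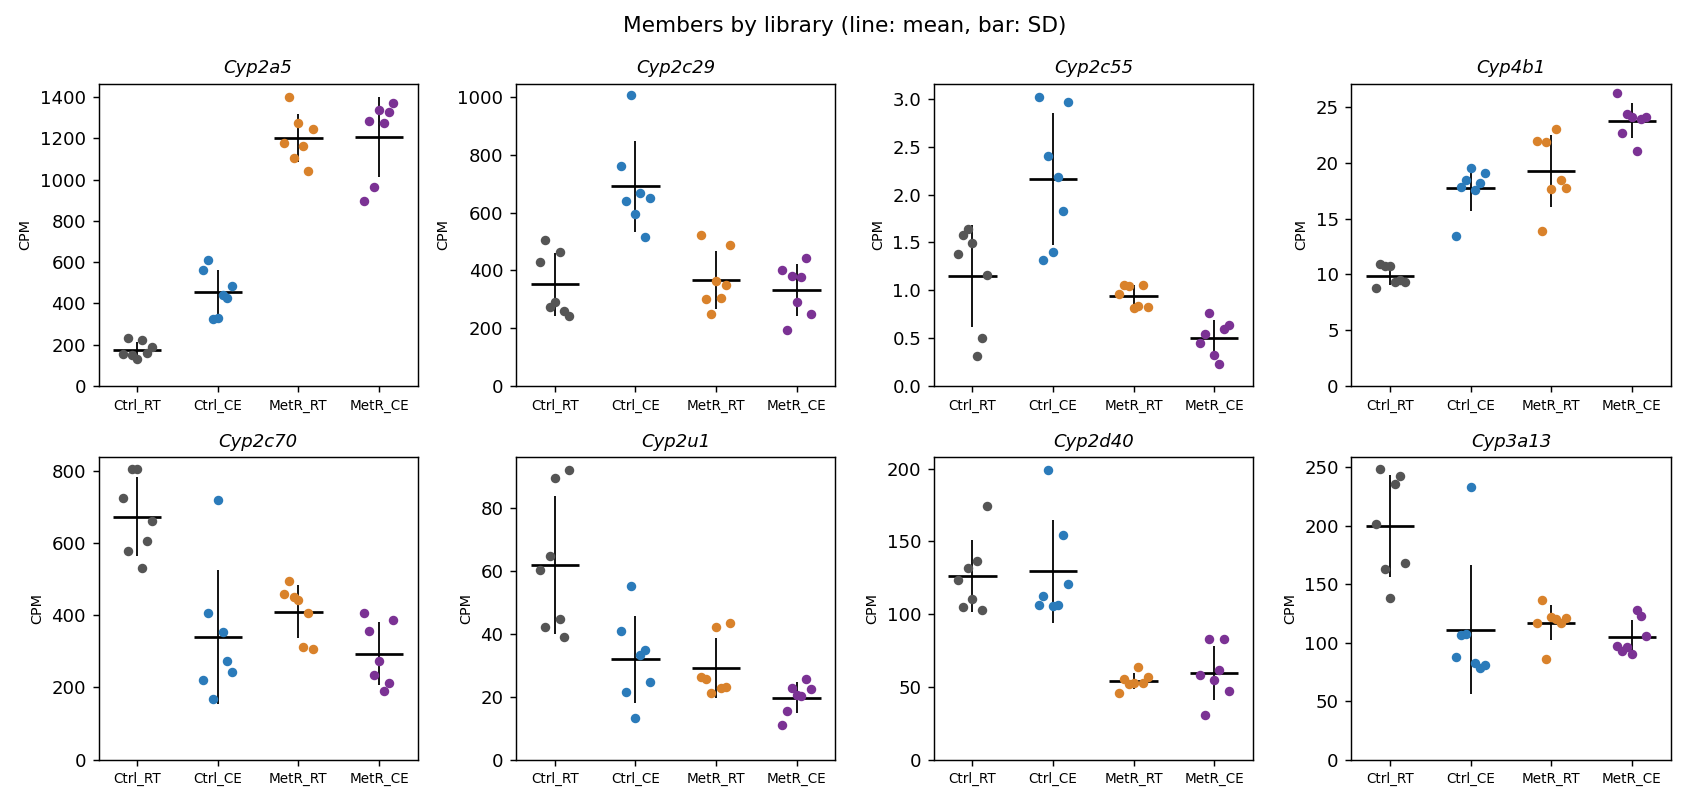
CPM of 8 members in each liver library by group, with the mean as a line and the SD as a bar, on axes that start at 0. Cyp2a5 and Cyp4b1 are above Ctrl_RT in all 3 treated groups, Cyp2c29 and Cyp2c55 are highest in Ctrl_CE, Cyp2d40 is lower in both MetR groups, and Ctrl_CE replicate 4 is the high point of Cyp2c70 and Cyp3a13.

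The design also asks whether CE acts differently on the 2 diets, tested as the diet by temperature interaction. Of the 46 members, 3 were called, all negative, against 1.06% of all genes (0.375% positive and 0.682% negative). Among genes with at least 1 CPM the share was 1.74% (0.607% positive and 1.13% negative). The median interaction of the members was -0.25, beside -0.026 for all genes. Cyp2a5 had an interaction of -1.36 ± 0.19 (adjusted p = 7.9e-04), where CE gave 1.37 on the control diet and 0.0071 on the MetR diet. Cyp2c55 had -1.78 ± 0.40 (adjusted p = 0.017), with CE values of 0.90 and -0.88 on the 2 diets. Cyp2c29 had -1.12 ± 0.27 (adjusted p = 0.030), with 0.98 and -0.14. The Cyp2c29 call was lost without Ctrl_RT replicate 3 or 6, MetR_RT replicate 1 or 7 or MetR_CE replicate 7, at -1.06 to -1.01 with adjusted p of 0.050 to 0.056. Below the fold limit, Cyp4b1 had -0.53 ± 0.13 (adjusted p = 0.032) and Cyp2j6 0.36 ± 0.09 (0.034). Without Ctrl_CE replicate 4, Cyp3a13 was called with a positive interaction of 0.98 (adjusted p = 0.0015), where all 28 libraries gave 0.69 (0.16), and Cyp2c50 with a negative one of -0.72 (0.017), where all gave -0.64 (0.069). DESeq2 also called Cyp1a1 at -1.13 (0.041) and Cyp2c50 at -0.63 (0.025).

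Between the 2 MetR groups, CE called 2 members higher and 4 lower, against 5.19% of all genes (2.75% higher and 2.44% lower). Among genes with at least 1 CPM it called 6.48% (3.79% higher and 2.69% lower). Cyp4a31 at 1.501 ± 0.41 (adjusted p = 0.0096) and Cyp2c39 at 0.94 ± 0.33 (0.046) were higher, and Cyp2c23 at -0.88 ± 0.19 (0.0014), Cyp2c55 at -0.88 ± 0.30 (0.042), Cyp2g1 at -0.88 ± 0.30 (0.039) and Cyp2j9 at -0.71 ± 0.24 (0.037) were lower. The calls of Cyp4a31 and Cyp2c23 held when any 1 library was left out, and those of Cyp2c39, Cyp2c55, Cyp2g1 and Cyp2j9 were lost in 11, 14, 10 and 8 of the 28 fits. Those of Cyp2c39 and Cyp2c55 were also lost without the count filter, with adjusted p of 0.052 and 0.057. Under CE, the MetR diet called 6 members higher and 4 lower, against 5.26% of all genes (1.17% higher and 4.1% lower). Among genes with at least 1 CPM it called 7.18% (1.57% higher and 5.61% lower). Cyp2b9 at 3.67, Cyp2a5 at 1.41, Cyp3a59 at 1.07, Cyp2c37 at 1.01, Cyp2c67 at 0.71 and Cyp2c68 at 0.71 were higher, and Cyp2c55 at -2.09, Cyp2d40 at -1.11, Cyp2c29 at -1.05 and Cyp2j9 at -0.87 lower. All 10 calls held when any 1 library was left out. Cyp2u1 was at -0.70 ± 0.25 with an adjusted p of 0.062 and so not called, and without Ctrl_CE replicate 4 it was called at -0.83 (0.015), as it was with DESeq2 at -0.70 (0.029).

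Several members belong to groups known for a sex bias in mouse liver, and all mice here were male. Of 7 tested genes in a list of female-biased genes, 2 were higher under CE (Cyp4a14 and Cyp2a4), 3 under MetR (with Cyp2b9) and 4 under both (with Cyp2b13), and none was lower. The list also holds Cyp2c40, Cyp2c69 and the rare Cyp3a44, which were not called. Cyp2c40 was at -0.39, -0.52 and -0.16 in the 3 comparisons and Cyp2c69 at 0.80, 0.67 and 0.92. Without Ctrl_CE replicate 4 their CE values were -0.98 and -0.58. The list's median log2 fold change was 2.17, 2.65 and 3.73. Under MetR and both, this median is the value of Cyp4a14, which is also a classical Ppara target. Cyp4a14 varied widely within groups, with a mean within-group SD of 1.58 on the log2 CPM scale. Cyp2a4 and Cyp2b13 averaged 0.94 and 0.056 CPM, and Cyp2b9 had 2 counts in Ctrl_RT, so these medians rest in part on low counts. Whether counts of Cyp2a4 are reads of Cyp2a5 was not tested. Cyp2b13 had no count in Ctrl_RT, and with it set to its bound against a floor of 3 counts over that group (at least 4.58-fold higher in MetR_CE) the medians were 1.25, 1.15 and 2.20. Of 10 male-biased genes, 5, 7 and 8 were lower and none higher, with medians of -0.71, -1.10 and -1.68. Among them Mup20, a major urinary protein, fell by 1.10 ± 0.30, 2.26 ± 0.31 and 2.45 ± 0.32, and Cyp4a12a, a male-biased omega-hydroxylase whose symbol ends in a letter and is not a member, fell by 1.85 ± 0.41 and 1.72 ± 0.41 under MetR and both. Cyp2d9, the most abundant male-biased member, was at 0.053, -0.044 and -0.13 and was not called. Cux2, a female-biased transcription factor of hepatocytes, rose by 3.22 ± 0.96, 2.81 ± 0.98 and 4.36 ± 0.92. It was rare in Ctrl_RT, at 0.078 to 0.92 CPM, and spread widely in the treated groups. The range was 0.78 to 11.9 CPM in Ctrl_CE, highest in replicate 4, and 0.56 to 8.41 in MetR_RT, and both overlapped Ctrl_RT. In MetR_CE it was 0.96 to 36.9 CPM.

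Among 18 regulators of P450 genes, 6, 4 and 7 were higher in the 3 comparisons and 0, 0 and 1 lower. Nr1i3, the constitutive androstane receptor that drives Cyp2b and Cyp2c genes, rose by 0.74 ± 0.17, 1.12 ± 0.18 and 1.66 ± 0.18. Cyp2b10, which is not a member, had 5 counts in Ctrl_RT and 9 in each treated group. Scaled to total counts, this was 1.52 times Ctrl_RT under CE (95% exact counting interval 0.459 to 5.79). It was 1.44 times under MetR (0.433 to 5.46) and 1.9 times under both (0.573 to 7.23), so no rise of Cyp2b10 was shown. Whether Nr1i3 changed any member was not tested. Ppara rose under CE by 1.33 ± 0.17 and under both by 1.53 ± 0.17, and was at 0.0023 ± 0.17 under MetR. Ahr rose by 0.83 ± 0.17 under CE and 0.89 ± 0.17 under both. Nr1i2 and Hnf4a, the hepatocyte nuclear factor, stayed below 1.5-fold, with 0.039 to 0.30 and -0.29 to 0.031. The circadian factors Dbp and Tef were higher in all 3 comparisons, and Nfil3 lower in MetR_CE. They spread widely in Ctrl_RT, where Dbp ran from 0.55 to 93.5 CPM and Tef from 19.6 to 134 CPM. Replicate 1 held the lowest Dbp and Tef and the highest Nfil3 (73.2 CPM) of that group. Ctrl_CE replicate 4 likewise held the lowest Dbp, at 47.8 CPM, and the highest Nfil3, at 72.2 CPM, of its group. Without Ctrl_RT replicate 1, 2 calls of members were lost, those of Cyp2c39 in MetR_RT and Cyp3a25 in MetR_CE, and all mice were killed in the light phase.

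Of 14 genes for electron supply and heme, Por rose in all 3 comparisons, by 1.07 ± 0.18, 0.73 ± 0.17 and 1.65 ± 0.18. Cyb5b, a cytochrome b5, rose under CE by 0.60 ± 0.10, and Cyb5a and the heme-binding Pgrmc1 rose under MetR. Alas1, the first enzyme of heme synthesis, was not called against Ctrl_RT, and rose by 1.69 ± 0.34 in MetR_CE over MetR_RT. Hmox1, which breaks heme down, rose by 1.06 ± 0.22 under CE. None of the 14 was lower in a comparison with Ctrl_RT, and the list's medians were 0.13, 0.052 and 0.23.

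Genes outside the P450 families that share their receptors gave 3 further lists. Of 8 targets of Nr1i3 and Nr1i2, 3, 5 and 4 were higher and none lower, with medians of 0.41, 0.70 and 0.68. The glutathione transferase Gstm1 rose by 0.74 ± 0.14, 2.38 ± 0.15 and 1.75 ± 0.14, and its interaction, like that of Cyp2a5, was negative at -1.36 ± 0.20 (adjusted p = 0.0010). Of 3 Ahr targets, 2, 1 and 1 were higher and none lower, with medians of 0.71, 0.17 and 0.26. The quinone reductase Nqo1 rose in all 3 comparisons, by 1.11 ± 0.22, 1.98 ± 0.22 and 1.91 ± 0.22. Tiparp was higher under CE only, and Ahrr, at or below 0.56 CPM in every library, was not called. Of 12 Ppara targets, 5, 2 and 4 were higher and none lower, with medians of 0.63, -0.00040 and 0.35.

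In the 3 fat depots of the same study most members were near absent. The median over libraries was at least 1 CPM for 11 members in brown fat (iBAT), 12 in inguinal fat (iWAT) and 12 in epididymal fat (eWAT). CPM here are scaled by library total only, and the depots come from tables separate from that of liver, so levels are set side by side without a test. Cyp2a5 had a median of 0, 0 and 0.075 CPM in iBAT, iWAT and eWAT, and 784 CPM in liver. Cyp2e1 was the most abundant in liver at a median of 4865 CPM and ranged in eWAT from 229.5 to 6810 CPM. In each depot 4 members had a higher median than in liver, and Cyp4b1 and Cyp4f16 were among them in all 3. Cyp4b1 had medians of 29.7, 47.1 and 71.5 CPM in the depots and 18.1 CPM in liver. Cyp2u1 had 93.1 CPM in iBAT against 26.9 CPM in liver.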

How the data were processed

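RNA of 110 liver and fat samples was sequenced, and the 28 liver libraries carry the comparisons. The authors aligned reads with STAR 2.7.9a and deposited raw counts per gene, for which the submitters' processing notes name featureCounts 2.0.3 and Salmon 1.9.0. The study's methods give mm10 and GENCODE vM25 for both. Which of the counters gave the deposited counts is not stated, and no genome positions are printed because the reference used here is another release. Symbols were matched by gene identifier for 51948 of 56884 identifiers. Counts were fitted with edgeR 4.0.16 (R 4.3.3; TMM factors, quasi-likelihood, 4 group means over all 28 liver libraries, genes with at least 10 counts in total), and adjusted p-values are Benjamini-Hochberg values over all genes tested. SE is the log2 fold change divided by the root of F. CPM are normalized by the TMM factors, except in the rule for members, in the fat depots and in the liver values beside them, where they are raw. Liver libraries held 6987895 to 33444374 counts, so genes near 1 CPM rest on few counts. The fit was tested on simulated data. Replicates are separate mice. Alternatives were RLE factors, 2 other filters, DESeq2 1.42.0 without and with apeglm 1.24.0, only the compared groups, a replicate block, adjusted p alone, a 5 CPM level, symbols with a trailing letter, and each library left out. Genes named are the called members with the 10 largest changes in each direction of a comparison with Ctrl_RT, those called in the interaction, the most abundant of each subfamily and the called genes of the lists (regulators, electron supply and heme, receptor targets, sex-biased genes), of which some are given by count. Cyp2c50, Cyp2c68, Cyp4a32, Cyp4f13 and other members outside this rule were named after their values were seen. Members and lists were chosen with earlier results of these data known. Sequences are from GENCODE M21 transcripts, and chromosomes from RefSeq (GRCm38).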

Additional observations from a re-analysis of the deposited data

Results flagged for a closer look

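The diet by temperature interaction differed from 0 at an adjusted p under 0.05 in 5 members, which means that CE gave different changes on the 2 diets. On the log2 scale it was -1.36 for Cyp2a5, -1.12 for Cyp2c29, -1.78 for Cyp2c55, -0.53 for Cyp4b1 and 0.36 for Cyp2j6.

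A single library lay far from the other 6 of its group in 23 of 184 sets of libraries (46 members in 4 groups). The rule would mark about 1 in 20 sets of normal and independent values. CPM are skewed and several members share reads, so no excess over that rate can be read from the 23. Ctrl_CE replicate 4 was such a library, with 22.4 CPM of Cyp2c69, 10.53 of Cyp2c40, 718 of Cyp2c70, 233 of Cyp3a13, 1786 of Cyp4a14 and 91.1 of Cyp4a31. Ctrl_RT replicate 7 held 7.04 CPM of Cyp2c69, 9.75 of Cyp2c40, 270.9 of Cyp2c67 and 109.5 of Cyp2c68. MetR_CE replicate 1 held 21.1 CPM of Cyp2c69, 12.9 of Cyp2c40 and 144 of Cyp2c68. Ctrl_RT replicate 2 held 6092 CPM of Cyp2e1, 600.1 of Cyp3a25 and 219 of Cyp4a14. The others were Cyp2b9 at 0.138 CPM in Ctrl_RT replicate 1, Cyp2j5 at 637 in MetR_RT replicate 7, Cyp4a32 at 37.8 in Ctrl_CE replicate 5 and 53.4 in MetR_CE replicate 6, and, as low libraries, Cyp2c39 at 1.62 in MetR_CE replicate 2, Cyp3a13 at 86.4 in MetR_RT replicate 3 and Cyp4b1 at 13.5 in Ctrl_CE replicate 1.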

How the results depend on the processing

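No alternative reversed the direction of a member's called change. Under the alternatives that kept all libraries, 1775 member values stayed on the same side of the threshold, 11 lost a call and 8 gained one. By adjusted p alone, the counts were 8 lower under CE, 1 higher in the interaction, 5 higher and 8 lower between the MetR groups, and 10 higher between the CE groups. DESeq2 called 5 lower in the interaction. Between the MetR groups, 1 was higher without the count filter, and with members of at least 5 CPM 1 was higher and 2 lower. The summed Cyp2j level of Ctrl_RT was 616 CPM without TMM factors. Leaving out each library gave 9 to 12 higher and 3 to 4 lower under CE, 11 to 13 and 5 under MetR, 13 to 15 and 9 to 10 under both, 0 to 1 and 2 to 6 in the interaction, 1 to 3 and 1 to 4 between the MetR groups, and 6 and 4 to 5 between the CE groups. The 6 came without Ctrl_RT replicate 2.

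Same-numbered libraries of different groups came from different mice, and their deviations correlated at -0.20 to 0.22, with 2 of 28 libraries closest to their own number. With the replicate number as a block 11 members were higher and 4 lower under CE, 12 and 5 under MetR, 15 and 10 under both, and 0 and 3 in the interaction. Counts near 1 CPM limit Cyp1a1, Cyp2b9, Cyp2c39, Cyp2c55 and Cyp2g1.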
